A study of Ovis aries with 20 samples.

Results

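The step from 120 days of gestation to term was examined in the pancreas of WT sheep. It comprised 4 of the 20 bulk RNA-seq libraries of the series: 2 of animals at 120 days and 2 of animals at term, which was 147 days. The animals were American Romney sheep with intact CFTR genes that had been bred rather than cloned. The other 16 libraries were of WT fetuses at 65, 80 and 100 days (6 libraries) and of CFTR-/- animals at all 5 ages (10 libraries), which were clones made by somatic cell nuclear transfer from male fibroblasts edited in exon 2 of CFTR. The 6 younger WT libraries entered the fit through the filter on low counts, the scaling factors and the shared estimate of the spread between animals. The 120-day samples were fetal, whereas the WT term animals were delivered naturally and killed afterwards, so that age and birth cannot be told apart. The sample names of the 120-day fetuses differ only in their last digit, unlike those of the term animals, and the labels do not say whether this marks a shared ewe. With 2 animals in each group an exact two-sided permutation test of a single gene cannot give a p below 0.333, and every test below rests on a model fitted across all genes.

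The fetal pancreas grows from branching epithelium embedded in mesenchyme, and its acinar cells build up the rough endoplasmic reticulum (ER) on which digestive enzymes are made. Proteins that enter the ER are folded by chaperones and disulphide isomerases, and those that fail to fold are passed back to the cytosol for degradation. The unfolded protein response (UPR) adjusts this machinery through the sensors IRE1, PERK and ATF6, and the PERK branch acts through ATF4 on genes of amino acid synthesis, amino acid uptake and tRNA charging. In sheep, fetal cortisol rises steeply before birth, and the pancreas is one of the organs that mature during that time. These statements are background and were not measured here.

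The 4 libraries were of similar depth, with 64397668 and 58808503 counts at 120 days and 61638572 and 62040594 at term. Levels are given as counts per 1000000 (CPM) scaled by the trimmed mean of M values (TMM), and 1 count corresponded to 0.0144 and 0.0185 CPM at 120 days and to 0.0246 and 0.0193 CPM at term. The locus LOC101117443 held the most counts in all 4 libraries, with 22.8% and 19% at 120 days and 12.5% and 22% at term. The 10 most abundant genes together took 32.6% and 26.9% of the counts at 120 days and 49.1% and 33.8% at term. The median absolute difference between the animals of a pair was 0.78 on the log2 scale at 120 days and 0.64 at term. It was 0.27, 0.28 and 0.47 at 65, 80 and 100 days. The shared estimate of the spread drew on these closer pairs, so the p-values given below may be too small for the ages compared. Across genes, which are not independent, Pearson's r of a pair was 0.852 at 120 days, 0.942 at term and 0.94 at 100 days.

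Several lists of genes of cells other than exocrine epithelium had their highest summed level in the second 120-day library. It also departed from the first in other genes. Cytosolic ribosomal protein genes, for example, summed to 99742 and 197960 CPM at 120 days against 59773 and 106040 CPM at term. Summed over 16 lymphoid genes, the libraries held 25.1 and 406 CPM at 120 days against 27.4 and 23.7 CPM at term. CD3E, a subunit of the T cell receptor complex, had 0.924 and 64 CPM at 120 days against 1.62 and 0.27 CPM at term, and CD79A, of the B cell receptor, had 0.188 and 13.4 CPM at 120 days against 0.197 and 0.116 CPM at term. MS4A1, the B cell antigen CD20, had 0.837 and 5.88 CPM at 120 days against 1.5 and 1.89 CPM at term. The summed level of 15 myeloid genes was 64.9 and 541 CPM at 120 days against 97.1 and 67.3 CPM at term, that of 14 stellate and smooth muscle genes 259 and 1093 CPM at 120 days against 184 and 119 CPM at term, and that of 18 adipocyte genes 191 and 801 CPM at 120 days against 431 and 227 CPM at term. By the mean of the 4 libraries, which ranks genes wherever a list's most abundant member per kb of exon is named, the first markers were LTB (lymphoid), C1QC (myeloid), TIMP1 (stellate) and FABP4 (fat). LTB and C1QC ranked first in the second 120-day library alone, and TIMP1 in none of the 4. In each of these, the second 120-day animal lay far above the first. CCL19, a chemokine of lymphoid stroma chosen after its values were seen, was at 0.0144 and 142 CPM at 120 days against 0.639 and 0.231 CPM at term, and the neuronal genes STMN2 and NPY, chosen likewise, were at 3.31 and 155 against 0.27 and 1.23 CPM and 0.635 and 40.9 against 0.172 and 0.135 CPM in the same order of libraries. Their part in the differences below was not tested. Where a gene below has 2 adjusted p-values, the second is from the fit without that library, and the counts of list members called are also given with each of the 4 libraries left out. For lists in which no gene was called, only fits without 1 library that called a gene are listed.

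The term animals differed from each other in digestive enzyme genes. CTRB1 and SYCN were chosen after their values were seen to show this. The chymotrypsinogen gene CTRB1 had 139 and 114 CPM at 120 days against 23303 and 349.7 CPM at term. The granule protein gene SYCN had 452 and 454 CPM at 120 days against 12694 and 491 CPM at term, so that the second term animal lay near the 120-day level for it. Transcript length moved with the library within both pairs when genes were split into 3 classes by exonic length and those at an average log2 CPM of 0 or more were taken (4575, 4961 and 5134 genes from the shortest to the longest class). The median log2 ratio of the second 120-day library to the first was 0.44 in the shortest class and -0.29 in the longest. The median log2 ratio of the first term library to the second was -0.47 in the shortest class and 0.29 in the longest. Called genes were somewhat longer than the rest, with a median exonic length of 3765 bases for higher and 3052 for lower genes against 2889 for all, and the part of length in the calls was not tested. The sex of the WT animals is not in the labels. The X-linked locus LOC101112291 (chrX:62537188-62573407) had 1244 and 890.0 CPM at 120 days against 0.0737 and 0 CPM at term, and between 0 and 31 counts in the 10 CFTR-/- libraries, whose donor line was male. Its count was above 1000 in 6 WT libraries, including both at 120 days, and under 10 in 4, including both at term. A difference in sex between the groups and the difference in age cannot be told apart on these libraries.

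**Figure D1:**
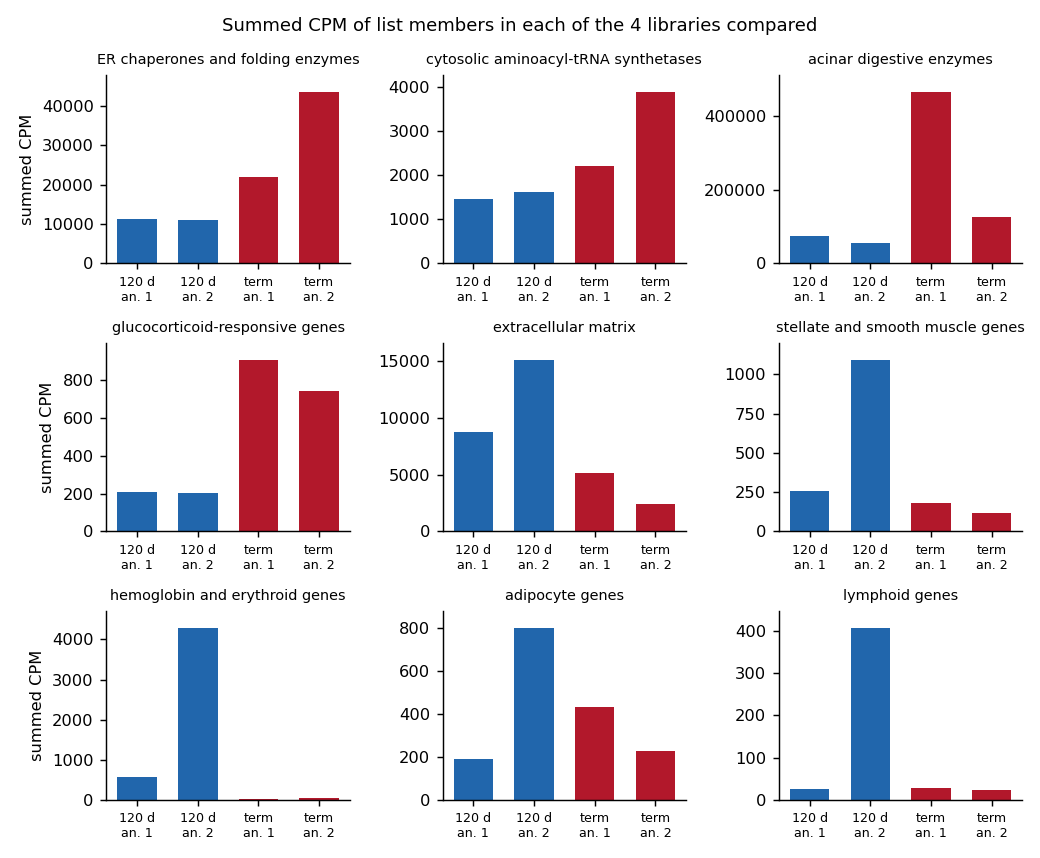
Summed CPM (linear axes starting at 0) of the members of 9 gene lists in the 4 libraries; blue bars are the 120-day animals 1 and 2 and red bars the term animals 1 and 2, each bar being 1 library with no error. Chaperones, tRNA synthetases and glucocorticoid-responsive genes are higher in both term bars, whereas the adipocyte and lymphoid bars of 120-day animal 2 reach 801 and 406 CPM.

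Of 24478 genes in the table, 18714 passed the filter on low counts. With an adjusted p up to 0.05 and at least a 1.5-fold change (edgeR quasi-likelihood test, Benjamini-Hochberg), 201 genes were higher at term (1.07% of those tested) and 202 were lower (1.08%). The study's adjusted p limit was 0.01, and 0.001 was also used for this step. At 0.01 the counts were 1 and 1, PSAT1 and C3H2orf40, and at 0.001 they were 0 and 0 (4368 genes had an unadjusted p under 0.05), so the calls lie close to the limit used here. Those 4368 were 23.3% of the genes tested. At 0.05 with only the 4 libraries compared, the counts were 0 and 0, although 1705 genes had an unadjusted p under 0.05. The median log2 fold change of all genes tested was -0.04. Both term libraries lay above both 120-day libraries in 3831 genes (20.5%) and below them in 4243 (22.7%). The smallest change called was 0.97 on the log2 scale, and the median was 1.70 for higher and -2.29 for lower genes. With 2 animals in each group the limit favours large estimates, so these sizes partly reflect the selection. In every called gene the term libraries lay on 1 side of both 120-day libraries. Both lay above all 8 other WT libraries in 200 of the 201 higher genes (99.5%), and of all genes in which they were above both 120-day libraries 2806 of 3831 (73.2%) did so. They lay below all 8 in 194 of the 202 lower genes (96%), against 2564 of the 4243 genes in which they were below both 120-day libraries (60.4%). The 120-day libraries were the lowest of all 10 in 18 of the 201 higher genes (8.96%). Of the 3831 genes with both term libraries above both 120-day libraries, 302 had that pattern. The 120-day libraries were the highest of all 10 in 19 of the 202 lower genes (9.41%). Of the 4243 genes with both term libraries below both 120-day libraries, 324 did so.

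The number of calls depended on single libraries. Without 120-day animal 2, 12 genes were called higher (0.0618%) and 35 lower (0.18%), and without 120-day animal 1 the counts were 1757 (8.96%) and 2036 (10.4%). Without term animal 1 they were 593 (3.02%) and 227 (1.16%), and without term animal 2 they were 70 (0.356%) and 39 (0.199%). In these fits the animal left alone in its group was assumed to vary like the other groups. All 403 genes kept their direction in every one of them, including the fit without 120-day animal 2. Because their groups do not overlap, leaving out 1 library could not have turned it, so this measures no stability. Of the 202 genes named by rule or chosen 111 were called, and 25 of these were called again without 120-day animal 2, 40 without term animal 2, 91 without term animal 1 and 111 without 120-day animal 1.

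**Figure D2:**
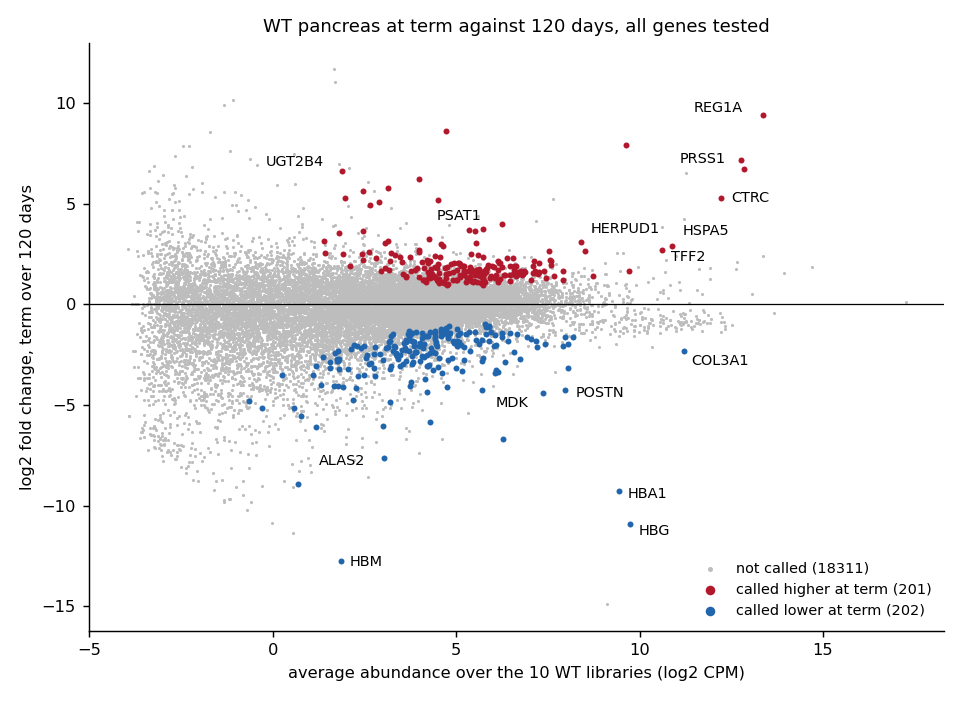
Log2 fold change of term over 120 days (y axis) against average abundance in log2 CPM over the 10 WT libraries (x axis), each point being 1 of 18714 genes tested; red and blue points were called higher (201) and lower (202). The called genes spread over the whole range of abundance, from UGT2B4 and HBM among scarce transcripts to REG1A among abundant ones, and HBM, with no count at term, is drawn at its fitted value, which is no bound.

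**Figure D3:**
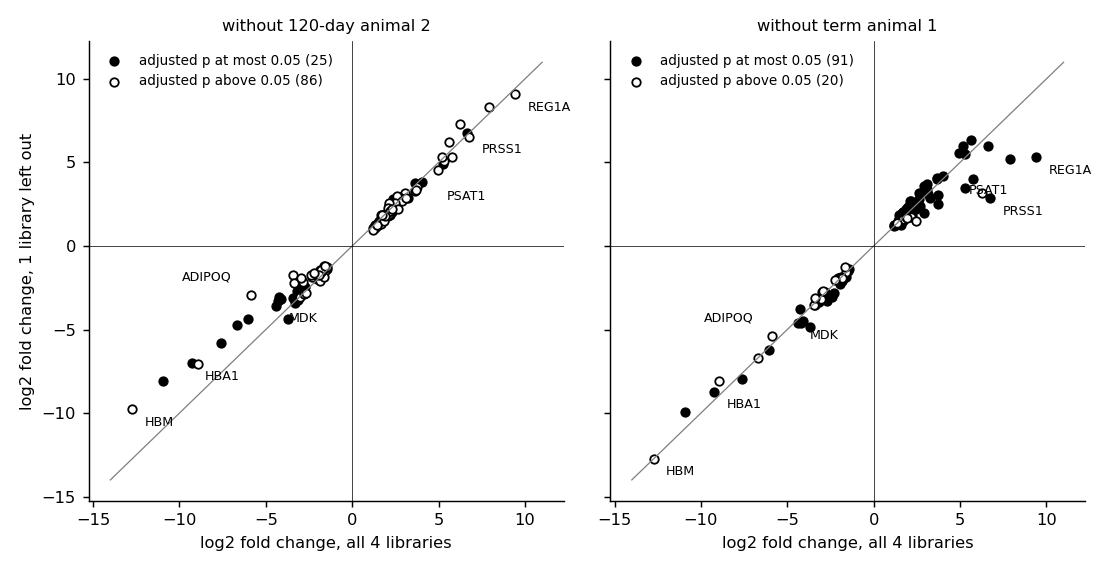
Log2 fold change of the called genes named in the text in the fit without 120-day animal 2 (left) or without term animal 1 (right), on the y axis, against that with all 4 libraries, on the x axis; filled points kept an adjusted p within 0.05. Every point lies in the quadrant of its original direction, as it must where the groups do not overlap. ADIPOQ falls in size without 120-day animal 2, and REG1A and PRSS1 do so without term animal 1.

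PSAT1, the aminotransferase of serine synthesis, had the smallest adjusted p. It stood at 20.9 and 15.7 CPM at 120 days against 272 and 325 CPM at term (chr2:58139556-58167245, Oar_v4.0), a log2 fold change of 4.02 (SE 0.27, adjusted p 0.00277) and 3.85 (adjusted p 0.00757) without 120-day animal 2. Its groups did not overlap, and the other WT libraries were at 18.4 to 23.3 CPM. HERPUD1, an ER membrane protein of the degradation pathway, had 144 and 119 CPM at 120 days against 906 and 1348 CPM at term (log2 fold change 3.10, SE 0.31, adjusted p 0.0207 and 0.045). TNS4, a tensin of focal adhesions, was nearly silent before term, with 0.549 and 0.297 CPM at 120 days against 14.7 and 18.4 CPM at term (log2 fold change 5.28, SE 0.56, adjusted p 0.0207 and 0.0295). AZIN1, the antizyme inhibitor that sustains polyamine synthesis, had 94.4 and 71.4 CPM at 120 days against 363 and 375 CPM at term (log2 fold change 2.15, SE 0.25, adjusted p 0.0207 and 0.0556). The calcium-binding protein gene EFHD2 had 47.9 and 37.7 CPM at 120 days against 171 and 156 CPM at term (log2 fold change 1.93, SE 0.23, adjusted p 0.0207 and 0.0556). CERK, the kinase that makes ceramide 1-phosphate, had 10.1 and 5.42 CPM at 120 days against 92.7 and 54.5 CPM at term (log2 fold change 3.24, SE 0.39, adjusted p 0.0207 and 0.0398), the first term animal being the higher. The rule that named these 6 genes took only genes with both term libraries above both 120-day libraries. In all 6 the pair at term was within 2-fold.

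The 4 genes that follow were taken for the size of their change among genes at a mean of 5 CPM or more that the table or RefSeq names. DIO1, the deiodinase that activates thyroid hormone, had 0.476 and 1.52 CPM at 120 days against 143 and 8.64 CPM at term, the first term animal far exceeding the second (log2 fold change 6.25, SE 1.25, adjusted p 0.0471 and 0.132, and 3.19 (adjusted p 0.0752) without term animal 1). ALDH1L2, the mitochondrial formyltetrahydrofolate dehydrogenase, had 1.05 and 0.464 CPM at 120 days against 71.9 and 11.6 CPM at term (log2 fold change 5.77, SE 0.89, adjusted p 0.0255). The log2 fold change of ALDH1L2 was 5.31 without 120-day animal 2 and 3.99 without term animal 1. CHAC1, a glutathione-degrading enzyme downstream of ATF4, was higher in the second term animal, with 0.346 and 0.705 CPM at 120 days against 10.3 and 41.4 CPM at term (log2 fold change 5.62, SE 0.80, adjusted p 0.0248 and 0.0607). CTRC, chymotrypsin C, had 647 and 477 CPM at 120 days against 38253 and 6029.6 CPM at term (log2 fold change 5.30, SE 0.91, adjusted p 0.0346 and 0.137). None of the 4 passed without 120-day animal 2, where their adjusted p lay between 0.0607 and 0.137.

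Of 15 sensors and transcription factors, 3 were called higher (9 and 0 without 120-day animals 1 and 2, 5 and 0 without term animals 1 and 2) and none lower, with a median log2 fold change of 1.23 against -0.04 for all genes. CREB3L3, an ER-anchored transcription factor, had 8.89 and 9.25 CPM at 120 days against 58.6 and 88.4 CPM at term (log2 fold change 3.02, SE 0.46, adjusted p 0.0255 and 0.0893), and ATF6 had 53.4 and 32.9 CPM at 120 days against 119.7 and 156 CPM at term (log2 fold change 1.67, SE 0.28, adjusted p 0.0309 and 0.106). The third was CHAC1, an enzyme that the list held besides sensors and transcription factors. XBP1, the target of IRE1 splicing and the most abundant of the list per kb, had 832 and 459 CPM at 120 days against 1925 and 2710.1 CPM at term and just missed the limit (adjusted p 0.0547). ATF4 had 318 and 397 CPM at 120 days against 595 and 908 CPM at term (adjusted p 0.0916), and DDIT3, the proapoptotic factor CHOP, had 9.85 and 18.6 CPM at 120 days against 15.4 and 17.2 CPM at term, with overlapping groups (adjusted p 0.754). Outside the list, 2 genes of the eIF2 and BiP cycles, chosen after their values were seen, were called higher: PPP1R15B, a subunit of the eIF2α phosphatase, with 86.5 and 69.2 CPM at 120 days against 229 and 185 CPM at term, and FICD, which AMPylates BiP, with 10.3 and 8.92 CPM at 120 days against 55.3 and 32.8 CPM at term.

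Of 24 ER chaperones and folding enzymes, 5 were called higher (11 and 0 without 120-day animals 1 and 2, 14 and 1 without term animals 1 and 2) and none lower, and all 24 had a log2 fold change above 0 (48.1% of all genes did). Their summed level was 11327 and 10892 CPM at 120 days against 22027 and 43670 CPM at term, and the median log2 fold change was 1.38, or 1.29 without 120-day animal 2. HSPA5, the central chaperone BiP, had 833 and 712 CPM at 120 days against 2663 and 9034 CPM at term (log2 fold change 2.92, SE 0.56, adjusted p 0.0435), the second term animal being the higher. The log2 fold change of HSPA5 was 2.84 without 120-day animal 2 and 1.805 without term animal 2. DNAJC3, a cochaperone of BiP that also restrains PERK, had 158 and 83.3 CPM at 120 days against 562 and 556 CPM at term (log2 fold change 2.21, SE 0.33, adjusted p 0.0248 and 0.0706). DNAJB9 had 134 and 91.2 CPM at 120 days against 298 and 352 CPM at term (adjusted p 0.041 and 0.155). HYOU1 and SDF2L1, which act with BiP, were called as well, at 248 and 118 against 694 and 1592 CPM and 33.6 and 54.2 against 179 and 213 CPM. PDIA2, the pancreatic disulphide isomerase and the most abundant member per kb, had 3403 and 3679 CPM at 120 days against 5828 and 5958 CPM at term and was not called (adjusted p 0.353).

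Of 17 genes of degradation from the ER, 5 were called higher (9 and 2 without 120-day animals 1 and 2, 8 and 3 without term animals 1 and 2) and none lower, with a median of 1.11. Besides HERPUD1 these were EDEM1, a mannosidase-like protein that marks misfolded glycoproteins, with 67.6 and 42.6 CPM at 120 days against 263 and 284 CPM at term (log2 fold change 2.31, SE 0.28, adjusted p 0.0207 and 0.0492), the membrane channel component DERL1 with 54.3 and 42.7 CPM at 120 days against 132 and 129 CPM at term, the E2 enzyme UBE2J1 with 56.2 and 50.2 CPM at 120 days against 142 and 121 CPM at term, and the E3 ligase SYVN1 with 107 and 75.9 CPM at 120 days against 274 and 245 CPM at term. HERPUD1 and EDEM1 also passed without 120-day animal 2. Of 29 genes of ER translocation and N-glycosylation 3 were called higher (6 and 0 without 120-day animals 1 and 2, 4 and 0 without term animals 1 and 2) (median 0.74), with the signal recognition particle receptor subunit SRPRA at 149.9 and 94.5 CPM at 120 days against 365 and 413 CPM at term and the particle's subunit SRP54 at 94.7 and 61.3 CPM at 120 days against 189.8 and 313 CPM at term. The third was the signal peptidase subunit SEC11C, at 95.8 and 113 against 370.4 and 302 CPM. SSR4, of the translocon-associated complex and the most abundant per kb, had 770.2 and 650.3 CPM at 120 days against 1008 and 691 CPM at term and was not called. Of 30 genes of transport from ER to Golgi 5 were called higher (18 and 0 without 120-day animals 1 and 2, 10 and 1 without term animals 1 and 2), but 2 with upper quartile factors (median 0.99): the coat protein genes SEC24A at 36.7 and 28.4 against 94.3 and 76.6 CPM and SEC23B at 107 and 57.2 against 207 and 309 CPM, the GTPase gene SAR1B at 27 and 21.6 against 57.6 and 54.1 CPM, and the cargo receptor genes LMAN1 at 171 and 106 against 353 and 347 CPM and MCFD2 at 163 and 117 against 417 and 680.2 CPM. TMED2 was the most abundant of them per kb, at 387 and 188 against 639 and 879.5 CPM, and was not called. The glycosylation genes MGAT4A, GMPPB and GNPTAB, chosen after their values were seen, were called higher too, with log2 fold changes of 2.90, 1.92 and 1.73.

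Of 13 genes of serine, one-carbon, proline and asparagine synthesis 3 were called higher (5 and 1 without 120-day animals 1 and 2, 6 and 3 without term animals 1 and 2) and none lower (median 1.21, or 0.78 without term animal 2). These were PSAT1, ALDH1L2 and asparagine synthetase, ASNS, which had 16.6 and 18.3 CPM at 120 days against 76.1 and 218 CPM at term (log2 fold change 3.07, SE 0.44, adjusted p 0.0248 and 0.0808). PHGDH, the first enzyme of serine synthesis, had 215 and 131 CPM at 120 days against 207 and 445 CPM at term, and its groups overlapped (adjusted p 0.21). Of 15 amino acid transporters 2 were called higher (9 and 0 without 120-day animals 1 and 2, 3 and 2 without term animals 1 and 2), the neutral amino acid carriers SLC1A5 with 127 and 115 CPM at 120 days against 331 and 766 CPM at term and SLC38A2 with 104 and 91.7 CPM at 120 days against 355 and 223 CPM at term, and the median was 1.56. Of 20 cytosolic aminoacyl-tRNA synthetases 5 were called higher (8 and 0 without 120-day animals 1 and 2, 15 and 1 without term animals 1 and 2) and none lower (median 1.33, or 0.87 without term animal 2), and their summed level was 1457 and 1616 CPM at 120 days against 2205 and 3893 CPM at term. They charge tRNA with methionine (MARS, 44.4 and 40.7 against 126 and 187 CPM), leucine (LARS, 54.8 and 46.4 against 110.3 and 174 CPM), asparagine (NARS, 79.7 and 50.5 against 167 and 189.6 CPM), glycine (GARS, 38.5 and 46.9 against 96.9 and 266 CPM) and isoleucine (IARS, 92.4 and 63.8 against 175 and 180.0 CPM). KARS, for lysine, was the most abundant member per kb and had 379 and 501 CPM at 120 days against 223 and 277 CPM at term, the one member below 0 (adjusted p 0.156). Of genes chosen after their values were seen, PCK2, the mitochondrial PEP carboxykinase, had 10.1 and 16.8 CPM at 120 days against 71 and 66.9 CPM at term (log2 fold change 2.36, SE 0.34, adjusted p 0.0248 and 0.0381). INHBE, an inhibin beta subunit gene, had 2.44 and 2.91 CPM at 120 days against 32.4 and 162 CPM at term (log2 fold change 5.18, SE 0.75, adjusted p 0.0248 and 0.0825). CTH and CBS, which convert homocysteine to cysteine, had log2 fold changes of 2.62 and 1.58.

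Of 16 digestive enzyme genes, 2 were called higher at term (3 and 0 without 120-day animals 1 and 2, 3 and 6 without term animals 1 and 2) and none lower, and the median log2 fold change was 2.15. Without term animal 1 that median was 0.91 and without 120-day animal 2 it was 2.22. The summed level was 74238 and 55424 CPM at 120 days against 465500 and 125560 CPM at term. CTRC and PRSS1, a trypsinogen locus named in the study's tables, were the genes called, and PRSS1 had 396 and 283 CPM at 120 days against 70546 and 2341 CPM at term (log2 fold change 6.75, SE 1.41, adjusted p 0.0499 and 0.198). PRSS1 was the most abundant per kb by its level in the first term library alone, while PRSS2 or CEL ranked first in the other 3. The first term animal exceeded the second by 6.34-fold in CTRC and by 30.1-fold in PRSS1. Without term animal 1 the log2 fold change was 3.48 (adjusted p 0.0166) for CTRC and 2.85 (adjusted p 0.0166) for PRSS1. The other genes were not called. PRSS2, another trypsinogen, had 5413 and 8535 CPM at 120 days against 43798 and 30199 CPM at term (adjusted p 0.0527). The elastase gene CELA3B had 3957 and 4249 CPM at 120 days against 25612 and 9743 CPM at term (adjusted p 0.0895), and the carboxyl ester lipase gene CEL had 16525 and 12282 CPM at 120 days against 59918 and 24839 CPM at term (adjusted p 0.159). CPA1, carboxypeptidase A1, had 26369.9 and 15563 CPM at 120 days against 124688 and 29267 CPM at term (adjusted p 0.185). PNLIP, pancreatic lipase, was low in all 4 libraries, with 1.13 and 0.686 CPM at 120 days against 35.1 and 2.22 CPM at term (adjusted p 0.0701), and CPB1, carboxypeptidase B1, chosen after its values were seen, had 778 and 366 CPM at 120 days against 19897 and 1534 CPM at term. Of 11 granule and accessory genes 1 was called higher (3 and 0 without 120-day animals 1 and 2, 1 and 4 without term animals 1 and 2), the locus named REG1A in the study's tables, a secreted lectin, with 96.6 and 55.5 CPM at 120 days against 101073 and 2903 CPM at term (log2 fold change 9.42, SE 1.63, adjusted p 0.0357 and 0.14); it was 34.8-fold higher in the first term animal than in the second, and the log2 fold change was 5.31 (adjusted p 0.00824) without the first. The granule lectin gene ZG16 had 35.3 and 39.7 CPM at 120 days against 1217 and 110.1 CPM at term (adjusted p 0.0621). The zinc transporter gene SLC30A2, chosen after its values were seen, moved with less spread, at 33.3 and 24.2 CPM at 120 days against 98.3 and 101 CPM at term (log2 fold change 1.79, SE 0.26, adjusted p 0.0248 and 0.0825).

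Several called genes were neighbours on the genome. Within 10000 bases of each other lay 16 pairs of called genes, formed by 26 genes, and 15 of the pairs changed in the same direction. Those 26 were 6.45% of the called genes, and 390 of the 18714 genes tested (2.08%) had a called gene that near. Of all 16766 pairs of tested genes that near, 52% had log2 fold changes of the same sign. The loci described next, apart from CTRC, EFHD2 and HERPUD1, were chosen after their values were seen. The largest cluster was on chromosome 12, where CASP9 (chr12:49990944-50029451), a caspase gene, overlapped the unnamed locus LOC101111210 (chr12:50013865-50033385) on the opposite strand, and CTRC and EFHD2 followed. LOC101111210 had 12.5 and 20.3 CPM at 120 days against 7268 and 586 CPM at term and CASP9 had 17.7 and 13.1 CPM at 120 days against 326 and 86 CPM at term. On chromosome 14, HERPUD1 (chr14:24326126-24337298) was followed on the same strand by LOC105613123 and LOC105613124, both called higher. These loci had 1.69 and 1.87 against 16.8 and 28.1 CPM and 1.14 and 0.501 against 14.2 and 37.6 CPM. On chromosome 7, HEATR4 overlapped ACOT1, an acyl-CoA thioesterase gene by the study's tables, and C7H14orf169, with log2 fold changes of 1.92, 3.14 and 1.70. All 4 overlapping pairs were on opposite strands. The strand setting of the counting is not given in the sources used here, so counts of overlapping genes cannot be told apart, and whether neighbours shared reads was not tested.

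Of 15 genes that glucocorticoid hormones are known to induce, 4 were called higher at term (7 and 1 without 120-day animals 1 and 2, 3 and 2 without term animals 1 and 2) and none lower, with a median of 1.85, or 1.57 without 120-day animal 2 and 1.57 without term animal 1. Their summed level was 207 and 205 CPM at 120 days against 906 and 744 CPM at term. FKBP5, a cochaperone of the glucocorticoid receptor, had 25.3 and 26.1 CPM at 120 days against 164 and 116 CPM at term (log2 fold change 2.44, SE 0.30, adjusted p 0.0223 and 0.0574), against 15.9 to 30 CPM at younger ages. PDK4, which inhibits pyruvate dehydrogenase, had 18.3 and 9.09 CPM at 120 days against 129 and 219 CPM at term (log2 fold change 3.67, SE 0.50, adjusted p 0.0248 and 0.068). The kinase gene SGK1 had 15 and 8.59 CPM at 120 days against 214 and 95 CPM at term (log2 fold change 3.71, SE 0.58, adjusted p 0.0259 and 0.1), and the transcription factor gene KLF9 had 29.3 and 15.5 CPM at 120 days against 89 and 72.6 CPM at term (adjusted p 0.0446 and 0.137). TSC22D3, also called GILZ and the most abundant per kb through the 120-day libraries alone, had 37.7 and 87.8 CPM at 120 days against 98.2 and 122 CPM at term and was not called, the second 120-day animal lying close to the term animals. Cortisol was not measured.

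Of 15 immediate early genes, which respond within minutes to stimuli and to handling of tissue, 1 was called lower (5 and 0 without 120-day animals 1 and 2, 1 and 0 without term animals 1 and 2) and none higher (1 without 120-day animal 1): KLF2, a flow-responsive factor, with 12.7 and 39.1 CPM at 120 days against 2.85 and 3.84 CPM at term (log2 fold change -2.95, SE 0.50, adjusted p 0.0323 and 0.0607). KLF6 had 32 and 51.1 against 25.9 and 12 CPM and MYC, the most abundant per kb, had 66.9 and 28.3 against 107 and 61 CPM, and neither was called. None of 14 cytosolic heat shock genes was called (5 had an unadjusted p under 0.05). Without term animal 1, 4 were called higher, without term animal 2, 2 were called lower, and without 120-day animal 1, 1 was called in each direction. Their median log2 fold change was 0.43 (0.27 and 0.69 without 120-day animals 1 and 2, 0.97 and -0.64 without term animals 1 and 2). BAG3 had 12.1 and 24.4 against 34.5 and 46.3 CPM, HSPA6 had 12 and 20 against 1.28 and 6.69 CPM, and HSPA8, the most abundant per kb through the term libraries alone, had 392 and 197 against 410.1 and 2036 CPM, with the second term animal far above the other 3.

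Of 14 duct and epithelial genes 1 was called higher (3 and 0 without 120-day animals 1 and 2, 1 and 1 without term animals 1 and 2) and none lower (1 without 120-day animal 1). This was TFF2, a secreted trefoil peptide, with 714 and 929 CPM at 120 days against 6566 and 4105 CPM at term (log2 fold change 2.7, SE 0.41, adjusted p 0.0251 and 0.0796). MUC1, an epithelial mucin, had 96.9 and 49 CPM at 120 days against 394 and 197 CPM at term (adjusted p 0.0546). The duct keratin gene KRT19 had 54.1 and 68.7 CPM at 120 days against 33.9 and 32.3 CPM at term (adjusted p 0.177). CFTR, the chloride and bicarbonate channel of duct cells, had 24.7 and 14 CPM at 120 days against 20.6 and 15.8 CPM at term, with overlapping groups and a log2 fold change of -0.09 (SE 0.31, adjusted p 0.892). None of 14 endocrine hormone and granule genes and none of 11 endocrine transcription factors was called (2 of each had an unadjusted p under 0.05). Without 120-day animal 1, 1 of the former was called lower and 2 of the latter higher. Glucagon, GCG, had 2712 and 843 CPM at 120 days against 366 and 1025 CPM at term and was the most abundant of the hormone list per kb, though it ranked first in the first 120-day library alone. Somatostatin, SST, had 495 and 390.2 CPM at 120 days against 237 and 390.2 CPM at term. The hormone genes PPY and GHRL had 15 and 57.9 against 42.1 and 60.5 CPM and 0.346 and 0.352 against 0.0983 and 0.675 CPM. CHGB and PCSK1N, of endocrine granules, had 16.3 and 59.8 against 7.49 and 11.1 CPM and 24.3 and 42.9 against 3.98 and 19.3 CPM. Among the transcription factors of islet cells ISL1 had 20.8 and 7.75 against 4.03 and 7.56 CPM and PAX6 had 30 and 3.58 against 8.55 and 9.08 CPM, and in both the first 120-day animal was well above the second. Of 8 progenitor transcription factors 1 was called lower (1 and 0 without 120-day animals 1 and 2, 0 and 0 without term animals 1 and 2), SOX11, with 2.41 and 2.3 CPM at 120 days against 0.319 and 0.251 CPM at term (log2 fold change -3.04, SE 0.58, adjusted p 0.0431 and 0.0893). SOX4 had 7.26 and 11.8 against 4.25 and 2.49 CPM, and SOX9, a marker of ducts and progenitors, had 97.8 and 44.1 against 60.6 and 46.6 CPM. HHEX, a factor of early pancreas and islet delta cells chosen after its values were seen, fell from 24.9 and 31.8 to 10.3 and 10.5 CPM (adjusted p 0.0248 and 0.0817). GATA4 and NR5A2, the 2 acinar factors tested, had 71.2 and 6.51 against 139 and 87.8 CPM and 73.7 and 44.4 against 58 and 44.6 CPM, and 1 of them was called higher without 120-day animal 1. The core genes AMY2A, PTF1A, RBPJL, BHLHA15, PDX1, INS and H19 were not analysed here.

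C3H2orf40, which encodes the secreted peptide augurin, was the lower gene with the smallest adjusted p, with 30.5 and 45 CPM at 120 days against 3.93 and 3.16 CPM at term (log2 fold change -3.41, SE 0.28, adjusted p 0.00833 and 0.00757). NRK, a kinase of embryonic tissue, had 114 and 157 CPM at 120 days against 25.5 and 15.9 CPM at term (log2 fold change -2.72, SE 0.30, adjusted p 0.0207 and 0.0295). CCL26, an eotaxin, had 133 and 110.0 CPM at 120 days against 12.9 and 11.6 CPM at term (log2 fold change -3.31, SE 0.39, adjusted p 0.0207 and 0.0295). COL9A3, a chain of cartilage collagen IX, had 22.4 and 20.3 CPM at 120 days against 2.68 and 2.14 CPM at term (log2 fold change -3.15, SE 0.38, adjusted p 0.0207 and 0.0331). C1QTNF3, a secreted adipokine of the C1q family, had 7.7 and 41.3 CPM at 120 days against 0.442 and 0.309 CPM at term (log2 fold change -6.03, SE 0.86, adjusted p 0.0248 and 0.0295). C25H10orf10 had 26.8 and 44.3 CPM at 120 days against 3.86 and 4.96 CPM at term (log2 fold change -3.01, SE 0.36, adjusted p 0.0207 and 0.0354). The rule that named these 6 genes took only genes whose groups did not overlap. FBXO44, the name the study's tables give a locus chosen after its values were seen, stood at nearly equal values within each pair, 38.8 and 39 CPM at 120 days against 9.26 and 9.99 CPM at term.

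Of 36 extracellular matrix genes 9 were called lower (20 and 1 without 120-day animals 1 and 2, 16 and 0 without term animals 1 and 2) and none higher, and the median log2 fold change was -1.44. It was -0.97 without 120-day animal 2, and -1.96 and -0.94 without term animals 1 and 2. In summed level these genes stood at 8732 and 15082 CPM at 120 days against 5118 and 2456 CPM at term. Periostin, POSTN, had 133 and 466 CPM at 120 days against 20.3 and 11.7 CPM at term (log2 fold change -4.23, SE 0.60, adjusted p 0.0248 and 0.0295), and thrombospondin 2, THBS2, had 16 and 33.8 CPM at 120 days against 4.45 and 2.6 CPM at term (log2 fold change -2.82, SE 0.43, adjusted p 0.0251 and 0.0607). COL3A1, the fibrillar collagen III chain and the most abundant per kb through the 120-day libraries alone, had 2353 and 4184 CPM at 120 days against 878 and 437 CPM at term (log2 fold change -2.31, SE 0.48, adjusted p 0.0482 and 0.167). Decorin, DCN, had 256 and 407 CPM at 120 days against 107 and 109 CPM at term (log2 fold change -1.62, SE 0.31, adjusted p 0.0441 and 0.164). The proteoglycans LUM and OGN, the collagen chain gene COL5A2 and the microfibril genes FBLN1 and FBN2 made up the rest, with log2 fold changes between -2.40 and -1.60. COL1A1 had 1512 and 1644 CPM at 120 days against 869 and 311 CPM at term and SPARC had 839 and 1336 CPM at 120 days against 614 and 257 CPM at term, and neither was called (adjusted p 0.128 and 0.132). Cartilage collagen genes chosen after their values were seen fell with COL9A3, namely COL2A1 with 16.6 and 4.47 CPM at 120 days against 1.3 and 0.347 CPM at term, COL9A1 with 49.4 and 33.6 CPM at 120 days against 10.1 and 16.7 CPM at term and COL11A1 with 6.81 and 5.4 CPM at 120 days against 1.33 and 0.598 CPM at term. The matrix protein gene FNDC1, chosen in the same way, had 12.4 and 34.1 CPM at 120 days against 1.74 and 0.984 CPM at term. In COL2A1 the second 120-day animal was the lower of its pair. The median of the 14 stellate and smooth muscle genes was -2.22, but -0.51 without 120-day animal 2. Of these 2 were called lower (10 and 0 without 120-day animals 1 and 2, 2 and 0 without term animals 1 and 2), MYL9, a myosin light chain, with 39.4 and 43.7 CPM at 120 days against 16.3 and 13.9 CPM at term (log2 fold change -1.46, SE 0.22, adjusted p 0.0248 and 0.0792), and THY1, with 42 and 232 CPM at 120 days against 14.4 and 11 CPM at term (log2 fold change -3.43, SE 0.70, adjusted p 0.0473), the latter at -1.71 (adjusted p 0.0893) without 120-day animal 2. ACTA2, smooth muscle actin, had 23.7 and 186 CPM at 120 days against 25.2 and 9.18 CPM at term, and only the second 120-day animal stood out (adjusted p 0.11). TIMP1 had 18.4 and 87.1 against 8.94 and 11.5 CPM, and MYH11, smooth muscle myosin, had 6.94 and 66.7 against 8.13 and 3.36 CPM.

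Of 30 growth factors and receptors 5 were called lower (10 and 2 without 120-day animals 1 and 2, 2 and 1 without term animals 1 and 2) and none higher (3 without 120-day animal 1). The median was -0.49 (-0.25 and -0.42 without 120-day animals 1 and 2, -0.68 and -0.39 without term animals 1 and 2). The heparin-binding factors midkine, MDK, and pleiotrophin, PTN, had 62.5 and 155 CPM at 120 days against 6.09 and 4.2 CPM at term (log2 fold change -4.40, SE 0.52, adjusted p 0.0207) and 151 and 263 CPM at 120 days against 26.5 and 19.2 CPM at term (log2 fold change -3.18, SE 0.37, adjusted p 0.0207). Both passed without 120-day animal 2 as well, at -3.58 (adjusted p 0.0237) and -2.71 (adjusted p 0.0295). FGF7, which mesenchyme sends to epithelium through FGFR2, had 2.99 and 5.86 CPM at 120 days against 0.86 and 1.04 CPM at term (adjusted p 0.0473 and 0.149), and FGFR2 had 27.4 and 18.8 CPM at 120 days against 6.86 and 5.94 CPM at term (adjusted p 0.0357 and 0.0556). PDGFC, a ligand of PDGF receptors, stood at 12.9 and 22.4 CPM at 120 days against 4.99 and 4.63 CPM at term (adjusted p 0.0387 and 0.116). SFRP1, a Wnt inhibitor and the most abundant of the list per kb, had 807 and 399.8 CPM at 120 days against 836 and 365 CPM at term, where the difference within each pair was larger than that between the groups. The insulin-like growth factor binding proteins IGFBP2 and IGFBP5, neighbours on chromosome 2 and chosen after their values were seen, had 15.3 and 44.6 CPM at 120 days against 1.01 and 2.08 CPM at term and 315 and 481 CPM at 120 days against 89.5 and 100.5 CPM at term. ETV4 and ETV5, transcription factors downstream of FGF signalling chosen in the same way, were called higher, at 2.01 and 2.91 against 14.3 and 7.71 CPM and 4.52 and 5.03 against 39.9 and 12.8 CPM. Of 21 imprinted and oncofetal growth genes 2 were called lower (4 and 0 without 120-day animals 1 and 2, 1 and 1 without term animals 1 and 2) and none higher (4 without 120-day animal 1). The median was -0.24 (-0.0873 and 0.0472 without 120-day animals 1 and 2, -0.10 and 0.071 without term animals 1 and 2). CDKN1C, a cell cycle inhibitor, had 26.7 and 89.5 CPM at 120 days against 4.67 and 6.48 CPM at term (log2 fold change -3.38, SE 0.56, adjusted p 0.0309), and SGCE had 24.1 and 31.4 CPM at 120 days against 8.82 and 9.97 CPM at term (log2 fold change -1.56, SE 0.24, adjusted p 0.0255). Without 120-day animal 2 the log2 fold change was -2.23 for CDKN1C and -1.33 for SGCE. DLK1, the most abundant per kb through the 120-day libraries alone, had 461 and 662 CPM at 120 days against 72.1 and 331 CPM at term, and IGF2 had 14.2 and 31.6 CPM at 120 days against 10.9 and 4.34 CPM at term, and neither was called.

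**Figure D4:**
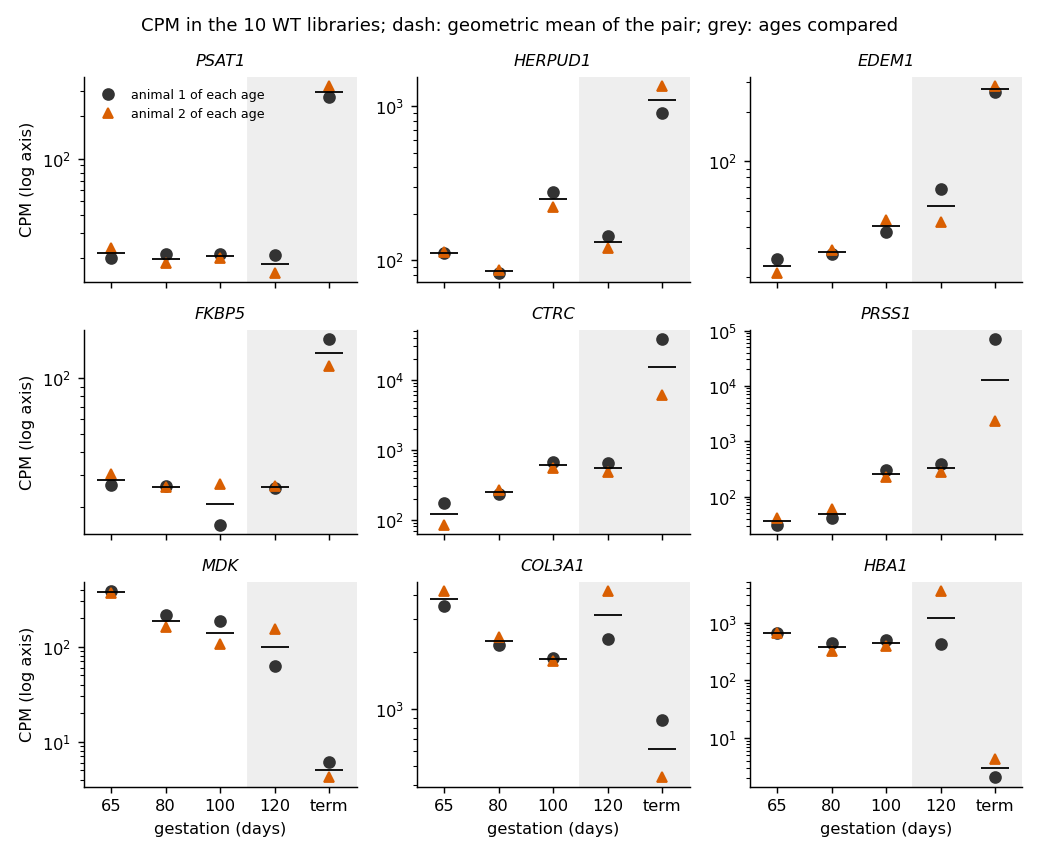
CPM on log axes for 9 genes at 65, 80, 100 and 120 days and term, with 1 circle and 1 triangle per age for the 2 animals, a dash for their geometric mean, and grey behind the ages compared. PSAT1, HERPUD1, EDEM1 and FKBP5 have their highest points at term, CTRC and PRSS1 do so with widely separated term animals, and MDK, COL3A1 and HBA1 have their lowest points there.

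**Figure D5:**
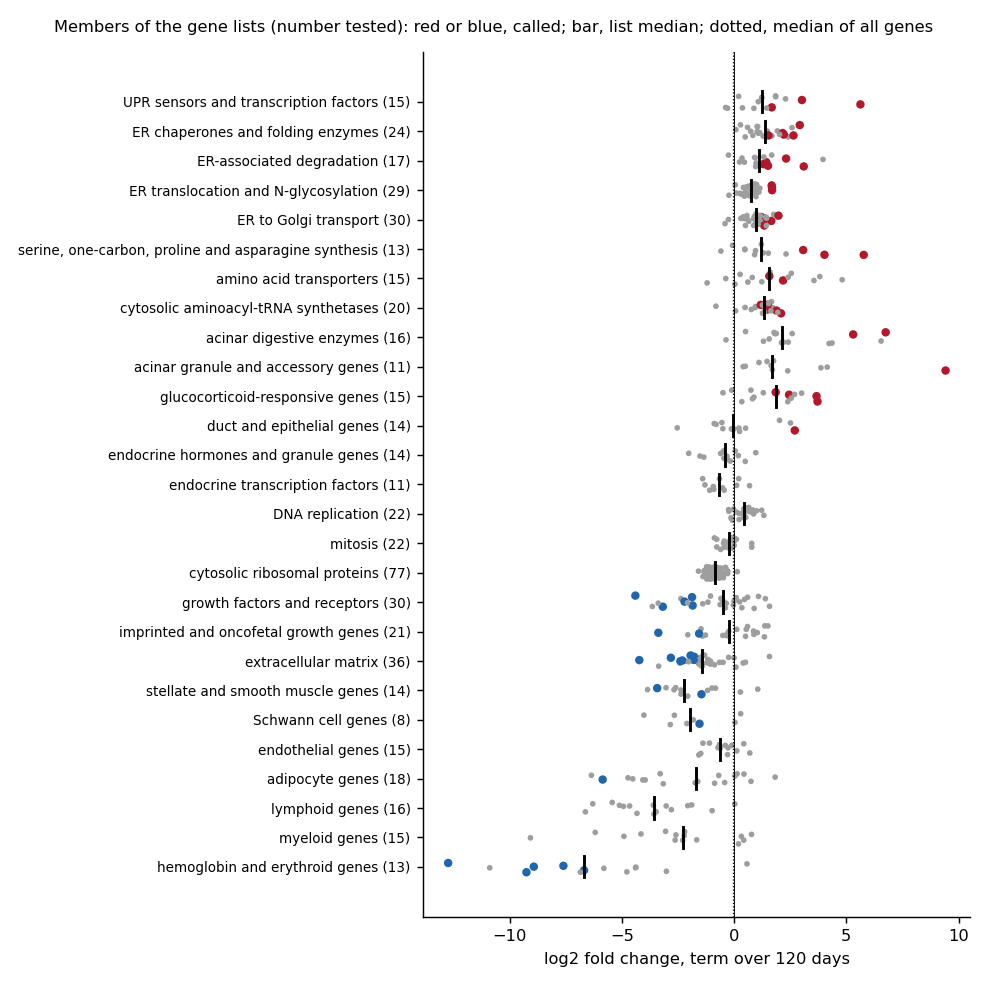
Log2 fold change of term over 120 days for each tested member of 27 gene lists, 1 point per gene, with red and blue for genes called higher and lower, black bars for list medians and a dotted line for the median of all genes (-0.04). Lists of ER function, amino acid supply and glucocorticoid response lie to the right, and matrix, stellate, lymphoid and erythroid lists to the left.

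Of 13 tested erythroid genes 5 were called lower (11 and 3 without 120-day animals 1 and 2, 2 and 0 without term animals 1 and 2) and none higher, and both term libraries lay below both 120-day libraries in 12 of the 13 (22.7% of all genes). The summed level was 561 and 4282 CPM at 120 days against 26.3 and 40.6 CPM at term, the second 120-day animal being the highest. In these bulk samples, fewer cells of a type and less RNA per cell cannot be told apart. The α-globin locus named HBA1 in the study's tables had 424 and 3478 CPM at 120 days against 2.06 and 4.3 CPM at term (log2 fold change -9.26, SE 1.11, adjusted p 0.0207 and 0.00709), and the locus named HBB had 95.1 and 629 CPM at 120 days against 3.76 and 3.26 CPM at term (log2 fold change -6.69, SE 1.00, adjusted p 0.0248 and 0.0295). The fetal globin locus named HBG there, outside the list and chosen after its values were seen, had 339 and 4474 CPM at 120 days against 0.0737 and 2.33 CPM at term (log2 fold change -10.94, SE 1.84, adjusted p 0.0323 and 0.0492). ALAS2, the erythroid enzyme of heme synthesis, had 7.45 and 44.9 CPM at 120 days against 0.172 and 0.0964 CPM at term (log2 fold change -7.61, SE 0.95, adjusted p 0.0223 and 0.00757). HEMGN, hemogen, had 1.69 and 10.5 CPM at 120 days against 0 and 0.0193 CPM at term (log2 fold change -8.93, SE 1.47, adjusted p 0.0299 and 0.0825). HBM, a minor α-like globin, had 1.7 and 25.4 CPM at 120 days against 0 and 0 CPM at term, with no count in either term library, and was at least 207-fold lower at term when 3 counts in each term library are taken as the floor, or 25.9-fold from 120-day animal 1 alone (adjusted p 0.0387 and 0.0556). The 4 globin and heme genes HBA1, HBB, HBG and ALAS2 passed without 120-day animal 2, with log2 fold changes of -7.02, -4.74, -8.07 and -5.78, and the median of the list was then -4.74 instead of -6.69. With genes at 0 in both term libraries set to the floor of 3 counts, the median was -5.83.

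Of 18 adipocyte genes 1 was called lower (7 and 0 without 120-day animals 1 and 2, 0 and 0 without term animals 1 and 2), ADIPOQ, which encodes adiponectin, with 12.8 and 179 CPM at 120 days against 1.11 and 2.18 CPM at term (log2 fold change -5.86, SE 1.21, adjusted p 0.0482). Without 120-day animal 2 its log2 fold change was -2.93 (adjusted p 0.205), and the median of the list moved from -1.68 to -0.09. CIDEA had 0.78 and 9.14 against 0.197 and 0.231 CPM, PLIN1 had 2.76 and 14.9 against 0.418 and 1.37 CPM, LEP had 0.188 and 2 against 0.0246 and 0 CPM, and FABP4 had 4.55 and 139 against 156 and 38.4 CPM. None of 16 lymphoid and none of 15 myeloid genes was called, although 8 and 10 had an unadjusted p under 0.05. Without 120-day animal 1, 9 and 11 of them were called lower. The list medians were -3.59 and -2.29, and -0.03 and 0.30 without 120-day animal 2. Without term animal 1 they were -5.92 and -3.31. LTB had 1.24 and 97.2 against 0.811 and 0.444 CPM, MPO had 0.318 and 13.8 against 0.0246 and 0 CPM, S100A8 had 0.217 and 38.1 against 0.393 and 0.135 CPM, S100A9 had 0.635 and 34.1 against 0.491 and 0.656 CPM and C1QC had 9.59 and 100.3 against 13 and 5.23 CPM. Of 8 Schwann cell genes 1 was called lower (4 and 0 without 120-day animals 1 and 2, 1 and 0 without term animals 1 and 2) and none higher (1 without 120-day animal 1). This was S100B, which had 25 and 25.4 CPM at 120 days against 8.33 and 8.97 CPM at term (log2 fold change -1.54, SE 0.22, adjusted p 0.0248 and 0.0673) and hardly varied within the pairs. None of 15 endothelial genes was called (3 had an unadjusted p under 0.05), and 3 were called lower without 120-day animal 1. EGFL7 had 30.3 and 73.4 against 15.4 and 19.3 CPM, TIE1 had 19.7 and 33.7 against 12 and 7.04 CPM, and PLVAP, the most abundant per kb, had 107 and 155 against 156 and 86.1 CPM.

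None of 22 DNA replication and none of 22 mitosis genes was called (5 and 0 had an unadjusted p under 0.05). Of the replication genes 4 were called higher without 120-day animal 1 and 1 without term animal 1, and of the mitosis genes 1 and 2 were called lower in these fits. The median was 0.44 for replication (0.57 and 0.46 without 120-day animals 1 and 2, 0.88 and 0.0957 without term animals 1 and 2) and -0.25 for mitosis (-0.0407 and -0.30 without 120-day animals 1 and 2, -0.85 and 0.30 without term animals 1 and 2). CDC6 had 14.5 and 8.47 against 21.9 and 31.9 CPM, MCM5 had 49 and 19.1 against 55.8 and 115 CPM, and MCM7, the most abundant replication gene per kb, had 108 and 152 against 82.8 and 136 CPM. AURKA, AURKB and UBE2C, of mitosis, had 5.62 and 9.72 against 4.74 and 4.2 CPM, 12.1 and 18.7 against 11.9 and 4.82 CPM and 21.9 and 20.6 against 17.8 and 13.4 CPM. The proliferation marker MKI67 had 35.4 and 12.9 CPM at 120 days against 66.1 and 17.2 CPM at term, with 1 animal of each pair well above the other. CCNE2, cyclin E2, chosen after its values were seen, was called higher, at 4.06 and 3.21 CPM at 120 days against 15.8 and 20.7 CPM at term (log2 fold change 2.33, SE 0.34, adjusted p 0.0248 and 0.0775). None of 77 cytosolic ribosomal protein genes was called (2 had an unadjusted p under 0.05), though 76 of them had a log2 fold change below 0 and the median was -0.88 (-1.31 and -0.22 without 120-day animals 1 and 2, -0.45 and -1.35 without term animals 1 and 2). Without 120-day animal 1, 2 were called lower. These are short transcripts, and the shortest class of genes at an average log2 CPM of 0 or more had a median of -0.12. That class ran up to 2030 bases and is not matched to them in length. The part of length in the ribosomal median was not tested. RPL35A had 1195 and 2704 against 508 and 1031 CPM, RPS21 had 328 and 1276 against 173 and 359.8 CPM and RPLP1, the most abundant per kb, had 3867 and 7390.5 against 2169.8 and 4039 CPM. Among 60 oxidative phosphorylation subunits none was called (2 had an unadjusted p under 0.05), and 2 were called lower without 120-day animal 1. The median was -0.23 (-0.72 and 0.50 without 120-day animals 1 and 2, 0.23 and -0.79 without term animals 1 and 2), so that its sign turned with single libraries. COX7A1 and COX4I2, named in the study's tables, had 4.66 and 22.5 against 3.07 and 3.99 CPM and 3.19 and 10.9 against 1.84 and 1.81 CPM, and ATP5F1E, the most abundant per kb through the second term library alone, had 103 and 233 against 105 and 209 CPM. None of 18 cholesterol synthesis genes was called (4 had an unadjusted p under 0.05; 1 was called higher without 120-day animal 1 and 1 without term animal 1), with STARD4 at 26.9 and 30.2 against 76.9 and 46.7 CPM and MSMO1, the most abundant per kb through the 120-day libraries alone, at 126 and 113 against 80 and 52.6 CPM. No hepatocyte or enterocyte marker was called. Among 13 hepatocyte and plasma protein genes (5 with an unadjusted p under 0.05; 1 called higher without 120-day animal 1 and 1 without term animal 1), albumin, ALB, had 26.6 and 20.8 against 1754 and 57.5 CPM, TF, transferrin, had 84.5 and 85.5 against 161 and 248 CPM, SERPINA1, the most abundant per kb through the second term library alone, had 111 and 170.0 against 261 and 3416 CPM and APOA1 had 218 and 298 against 134 and 68.5 CPM. Of 8 enterocyte genes 4 were tested, of which 2 were called higher without 120-day animal 1, with ANPEP at 358 and 143 against 1216 and 543 CPM and VIL1 at 91.3 and 46.1 against 116 and 185 CPM. In the lists in which edgeR called no gene, DESeq2's Wald test, which called 1265 genes higher and 1691 lower in all, called 1 endocrine hormone or granule gene lower, 3 endothelial, 8 lymphoid, 7 myeloid and 2 oxidative phosphorylation genes lower, and 2 replication, 1 cholesterol synthesis, 4 hepatocyte and 2 enterocyte genes higher. Of the heat shock genes it called 3 higher and 1 lower, and of the endocrine and acinar transcription factors, mitosis and ribosomal protein genes it called 0.

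The same step in CFTR-/- animals, cloned and of male origin, was examined to ask where the WT step differed from it. In those libraries 2 genes were called higher at term (0.0102% of 19522) and 8 lower (0.041%), in the fit over all 20 libraries, in which WT had 504 (2.58%) and 523 (2.68%), with 2 genes called the same way in both genotypes. Of the 201 genes called higher in the fit of the WT libraries, 134 had a log2 fold change above 0 in CFTR-/- (66.7%, against 42.6% of all genes), with a median of 0.17. Of the 202 called lower, 38 were above 0 (18.8%), with a median of -0.56. These genes were chosen for the size of their change in WT, so the sizes in the 2 genotypes are not compared. Of the 403 genes, 1 was called the same way in both genotypes. The difference of the steps itself was called for 7 genes (0.0359%), all with an adjusted p of 0.047, while 3415 genes had an unadjusted p under 0.05 (17.5%). The number of calls varied with the fit. It was 0 with DESeq2 size factors, 0 with the replicate block and 10 with no filter on low counts. Leaving out 1 library moved it both ways, as given in the closing section. In CPM of the fit over all 20 libraries, EXTL3, a heparan sulphate glycosyltransferase, went from 23.3 and 14.3 to 95.1 and 61.7 in WT and from 19.2 and 18.1 to 13.4 and 10.5 in CFTR-/-. ARL1, a Golgi GTPase, went from 11.1 and 7.99 to 37.7 and 45.1 in WT and from 11.9 and 15.2 to 9.65 and 9.18 in CFTR-/-. The translation termination factor gene ETF1 went from 44.8 and 40.7 to 134 and 219 in WT and from 51.3 and 58.8 to 61.4 and 50.5 in CFTR-/-. The locus named UGT2B4 in the study's tables, a glucuronosyltransferase, went from 0.156 and 0.181 to 23.2 and 10.5 in WT, whereas in CFTR-/- it had 18 and 20 counts at 120 days and none at term. C25H10orf10 went from 26.3 and 43.4 to 3.78 and 4.87 in WT and from 21.4 and 26.1 to 50.8 and 581 in CFTR-/-. It overlaps LOC105605070 on the other strand, and that locus went from 6.49 and 5.64 to 0.867 and 0.871 in WT and from 3.99 and 3.92 to 8.75 and 45.8 in CFTR-/-. FAM168A, which was not called in WT, had 109 and 74 counts at 120 days and none at term in CFTR-/-. Genotype, cloning, a possible difference in sex of the WT animals and the lower depth of the second CFTR-/- term library, with 23171353 counts, cannot be told apart in this difference, and RNA integrity was not analysed here.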

How the data were processed

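Pancreas samples were homogenized in TRIzol, and oligo-dT selected RNA was made into directional libraries and sequenced as paired 100-base reads. The authors aligned reads to Oar_v4.0 with STAR (2.6 in the submitters' notes, another version in the methods) and counted them per gene with featureCounts 1.6.3. The deposited values are raw counts; the strand setting is not given in the sources used here. Groups came from the sample titles. The counts of the 10 WT libraries were tested with edgeR 4.0.16 (R 4.3.3, limma 3.58.1) by the quasi-likelihood F-test in its legacy form, with TMM factors, filterByExpr (minimum count 10, minimum total 15) and a group-means model. A gene was called where its p, adjusted by the method of Benjamini and Hochberg, was within 0.05 and its fold change was 1.5 or more. The study's limit was 0.01, with 0.001 also used for this step, and which edgeR test it applied is not given in the sources used here; 0.05 was taken with the counts at 0.01 and 0.05 known. The genotype difference was an interaction contrast over all 20 libraries. The scripts were tested on simulated data.

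Names came from the table, from RefSeq (495 of 8432 locus identifiers) or from the study's tables (83). By rule, the text names the 8 genes per direction with the smallest adjusted p and the 4 with the largest change among genes named by the table or RefSeq at a mean of at least 5 CPM whose groups do not overlap, the 2 members of each list with the smallest p and its most abundant member per kb, a set of core genes, and the genes of the genotype difference. A few genes that the rule takes are not reported here. Genes outside it, further list members included, were chosen after their values were seen, whether or not the text marks them. The members and lists were chosen with earlier results of these data known. The alternatives were other scaling factors (DESeq2 1.42.0), filters, limits and tests, the replicate block and leaving out each library. Whether animals shared a ewe is not stated, and p-values measure only the spread between these samples. No sequence is shown.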

Additional observations from a re-analysis of the deposited data

Results flagged for a closer look

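The step from 120 days to term differed between WT and CFTR-/- animals for 7 genes, by a test of the difference itself with an adjusted p of 0.047 each (edgeR quasi-likelihood test over all 20 libraries). The log2 fold change of WT minus that of CFTR-/- was 2.7 for EXTL3, 2.64 for ARL1 and 2.02 for ETF1, which were higher at term in both WT animals. It was -6.74 for C25H10orf10 and -5.58 for LOC105605070, which overlap on opposite strands. For UGT2B4 it was at least 7.71 and for FAM168A at least 4.36, because neither had a count in the CFTR-/- term libraries and 3 counts per library were taken as the floor there. None of the 7 was called with DESeq2 size factors.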

How the results depend on the processing

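All 403 called genes kept their direction under every alternative tried. Their groups do not overlap, so leaving out 1 library could not turn them, and the kept direction measures no stability. Of the 403, 387 were called again with DESeq2 size factors, 348 with upper quartile factors and 395 with the newer quasi-likelihood fit of edgeR. That newer fit was an alternative added after the data were seen. With glmTreat 31 were called again, with the replicate block 1 and with only the 4 libraries compared 0. The number of genes called higher and lower was 201 and 202 in the fit reported. It was 1 and 1 at an adjusted p limit of 0.01, 0 and 0 at 0.001 (added after the data were seen, with 4368 genes at an unadjusted p under 0.05), 799 and 1014 at an unadjusted p limit of 0.01, 350 and 404 with no filter on low counts, and 14 and 17 when glmTreat tested against a change of 1.5-fold. With all 20 libraries in the fit it was 504 and 523, and DESeq2's Wald test gave 1265 and 1691. With only the 4 libraries compared edgeR called 0 and 0, although 1705 genes had an unadjusted p under 0.05. Upper quartile factors gave 148 and 263, so that 36% of calls were higher instead of 49.9%, with the median of all genes at -0.12. Leaving out 1 library gave 12 to 1757 higher and 35 to 2036 lower genes. With the replicate block the counts were 1 and 0, with 3641 genes at an unadjusted p under 0.05. The deviations of same-numbered libraries correlated at 0.12 between 120 days and term and at -0.42 to 0.23 over the 10 pairs of ages. These correlations cannot decide whether the replicate numbers mark a pairing or a batch, and the labels do not say so.

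The genotype difference was called for 7 genes, for 0 at an adjusted p limit of 0.01, for 10 with no filter, for 0 with DESeq2 size factors (3461 with an unadjusted p under 0.05), for 0 with the replicate block (3224) and for 0 to 1266 without 1 library. It was 1266 without the first WT 120-day library, 289 without the first WT term library, 961 without the first CFTR-/- term library, and 0 without any one of the other 5. The causes of these shifts were not tested.

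Of 111 called genes among the 202 named by rule or chosen, none reversed under any alternative. For the fits without 1 library this was fixed beforehand, because the groups of called genes do not overlap. The genes whose log2 fold change took the other sign without 1 library had not been called, and their range over the 4 libraries left out was NR5A2 (-0.50 to 0.21), SOX9 (-0.85 to 0.28), PAX6 (-1.75 to 1.31), PLVAP (-0.54 to 0.28), SFRP1 (-0.67 to 0.59), MCM7 (-0.62 to 0.13), FABP4 (-0.82 to 4.42), ATP5F1E (-0.65 to 0.64), DDIT3 (-0.19 to 0.75), PPY (-0.17 to 1.80), GHRL (-1.79 to 1.01), CFTR (-0.42 to 0.38), MKI67 (-0.43 to 1.69), CCL19 (-8.38 to 4.74), LOC101117443 (-0.12 to 0.39), CD3E (-6.81 to 0.0302), S100A8 (-7.19 to 0.29) and MS4A1 (-1.79 to 1.04). For SFRP1 (-0.01) the sign also turned with DESeq2 size factors (0.0331), with no filter (0.0145) and in DESeq2's Wald test (0.0334). At 120 days 1 count was worth up to 0.0185 CPM and at term up to 0.0246, so values of that order, as for HEMGN at term, rest on single counts.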
